A study of Mus musculus with 8 samples.

Results

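The Iroquois homeobox factors are 6 genes, Irx1 to Irx6, of the 18194 genes that the arrays measured with a probeset of their own. A probeset is a group of short probes that reads one transcript, and each Iroquois gene had exactly 1, so 6 probesets were described. The family was chosen with the difference between knockout and wild type hearts already known, Irx2 in particular being selected on that contrast, so the differences between genotypes below are a description without a test. The question was how Irx2 differed between genotypes beside Irx4, the ventricular member, and the rest of the family.

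RNA came from whole hearts of male C57B/6Jx129Sv mice fed ad lib, not subjected to pressure overload, with 4 wild type (WT) hearts and 4 hearts lacking steroid receptor coactivator-2 (SRC-2 KO), each on its own array. SRC-2 is a partner protein of nuclear receptors and other transcription factors and is encoded by Ncoa2. The labels give an age of 10 to 12 weeks, and the methods give a wider range and call the animals littermates. The paper describes the KO as germline, so it was not limited to heart muscle. A whole heart holds atria, ventricles, valves and vessels, so in every comparison below fewer cells of a type and less RNA per cell cannot be told apart.

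Iroquois factors are TALE homeobox proteins, whose homeodomain carries an extra loop, and most act on transcription as repressors or activators according to partner and tissue. Their genes lie in a pair of clusters, IrxA with Irx1, Irx2 and Irx4 on mouse chromosome 13, and IrxB with Irx3, Irx5 and Irx6 on mouse chromosome 8. In heart, Irx4 is known as a ventricular factor that holds back atrial genes, Irx5 shapes the gradient of potassium current across the ventricular wall, Irx3 serves fast conduction in the Purkinje system, and Irx1 and Irx2 are known from the ventricular septum of the embryo.

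The upstream sequences of Irx2 and Irx4 are shown because these neighbours in 1 cluster gave different values in the KO hearts. RefSeq windows of 300 bases on GRCm38.p6 were read, of which the 250 bases before the start of transcription are printed, 5′ to 3′ on the plus strand. Capitals mark the GC box GGGCGG and the CCAAT box, both read on either strand.
Irx2, chr13:72628570-72628819: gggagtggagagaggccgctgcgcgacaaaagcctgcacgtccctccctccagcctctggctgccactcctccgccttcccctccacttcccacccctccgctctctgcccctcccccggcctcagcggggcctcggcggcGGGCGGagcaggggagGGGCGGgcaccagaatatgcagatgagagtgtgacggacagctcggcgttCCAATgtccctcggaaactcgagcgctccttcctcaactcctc
Irx4, chr13:73260247-73260496: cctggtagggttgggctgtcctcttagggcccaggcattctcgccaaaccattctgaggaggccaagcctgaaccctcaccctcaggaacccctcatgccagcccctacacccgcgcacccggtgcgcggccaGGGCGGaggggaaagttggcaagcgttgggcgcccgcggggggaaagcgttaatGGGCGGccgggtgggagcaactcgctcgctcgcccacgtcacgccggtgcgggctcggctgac

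Both windows were rich in CpG, with 25 CpG dinucleotides in that of Irx2 and 31 in that of Irx4 against a median of 7 over 32851 promoter windows. Their GC content was 69.0% and 70.7%, and the median window had 52.7%. The Irx2 window held 2 GC boxes, 109 and 93 bases before the start, and a CCAAT box 43 bases before it. The Irx4 window held 2 GC boxes, 117 and 63 bases before the start, and no CCAAT box. A GC box occurs in 35.7% and a CCAAT box in 37.4% of all windows, so a match is a description and not a site. The nuclear receptor half-site AGGTCA (16.3% of windows), the E-box CACGTG (7.15%) and the TATA box TATAAA (13.6%) had no match in either. The Irx3 window, on the minus strand, had a GC content of 56.0%, 14 CpG dinucleotides and none of these letters. RefSeq windows were not read here for Irx1, Irx5 and Irx6.

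Irx2 had a higher signal in every SRC-2 KO heart than in any WT heart. Its signal, an intensity on the linear scale of the array, was 205, 187, 143 and 192 in WT replicates 1 to 4 and 353, 346, 662 and 440.2 in KO replicates 1 to 4. The 4 WT hearts lay close together, and among the KO hearts replicate 3 stood highest while replicates 1 and 2 were nearly equal. The means were 182 ± 26.6 (SD, n = 4) and 450.5 ± 147 (SD, n = 4), which is a log2 difference of 1.27 (standard error 0.24), or 2.41-fold. Without KO replicate 3 the log2 difference was 1.07.

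Irx4 differed little between the genotypes. Its signals were 539, 572, 447 and 445 in the WT hearts and 449.8, 581, 635 and 605 in the KO hearts. The groups overlapped, since KO replicate 1 lay at the level of the lower WT pair and the remaining KO hearts lay above all WT hearts. The means were 500.6 ± 64.8 and 567 ± 81.5 (SD, n = 4 each), a log2 difference of 0.18 (standard error 0.14), and of 0.29 without KO replicate 1.

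Irx1, the neighbour of Irx2 in the IrxA cluster, was on average higher in KO hearts, with overlap. Its signals were 149, 145, 162 and 278 in WT hearts and 229.8, 209, 508 and 300.1 in KO hearts. WT replicate 4 stood apart from the other WT hearts and lay above KO replicates 1 and 2. The means were 183 ± 63.3 and 312 ± 137 (SD, n = 4 each), a log2 difference of 0.73 (standard error 0.36), and of 0.46 without KO replicate 3. The KO hearts fell in the same order for Irx1 as for Irx2, replicate 3 first, then 4, 1 and 2, and the WT hearts did not.

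The IrxB members had lower means in KO hearts, all with overlap. Irx3 gave 2213, 1883, 1793 and 2829 in WT hearts and 1192, 1967, 2251 and 1317 in KO hearts. KO replicates 1 and 4 lay under every WT heart, and KO replicates 2 and 3 lay within the WT range. Its means were 2180 ± 469 and 1682 ± 509 (SD, n = 4 each), a log2 difference of −0.40 (standard error 0.27), and of −0.25 without KO replicate 1. Irx5 gave 481, 438, 533 and 657 in WT hearts and 329, 475, 504 and 506 in KO hearts. KO replicate 1 alone lay outside the WT range. The means of Irx5 were 527 ± 95.0 and 453 ± 84.2 (SD, n = 4 each), a log2 difference of −0.22 (standard error 0.19), and of −0.075 without KO replicate 1.

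Irx6 had low signals, 2 of 8 of them near background. A signal under 50, where 36.9% to 40.7% of the probesets of an array fell, is called near background here. WT hearts gave 65.9, 73.4, 80.4 and 70.0, and KO hearts gave 78.4, 54.3, 4.86 and 11.2. KO replicate 1 lay within the WT range while KO replicates 3 and 4 were far under 50. The means were 72.4 ± 6.15 and 37.2 ± 35.2 (SD, n = 4 each), a log2 difference of −1.72 (standard error 0.95), which was −0.34 with signals under 50 set to 50, so its size is uncertain.

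**Figure D1:**
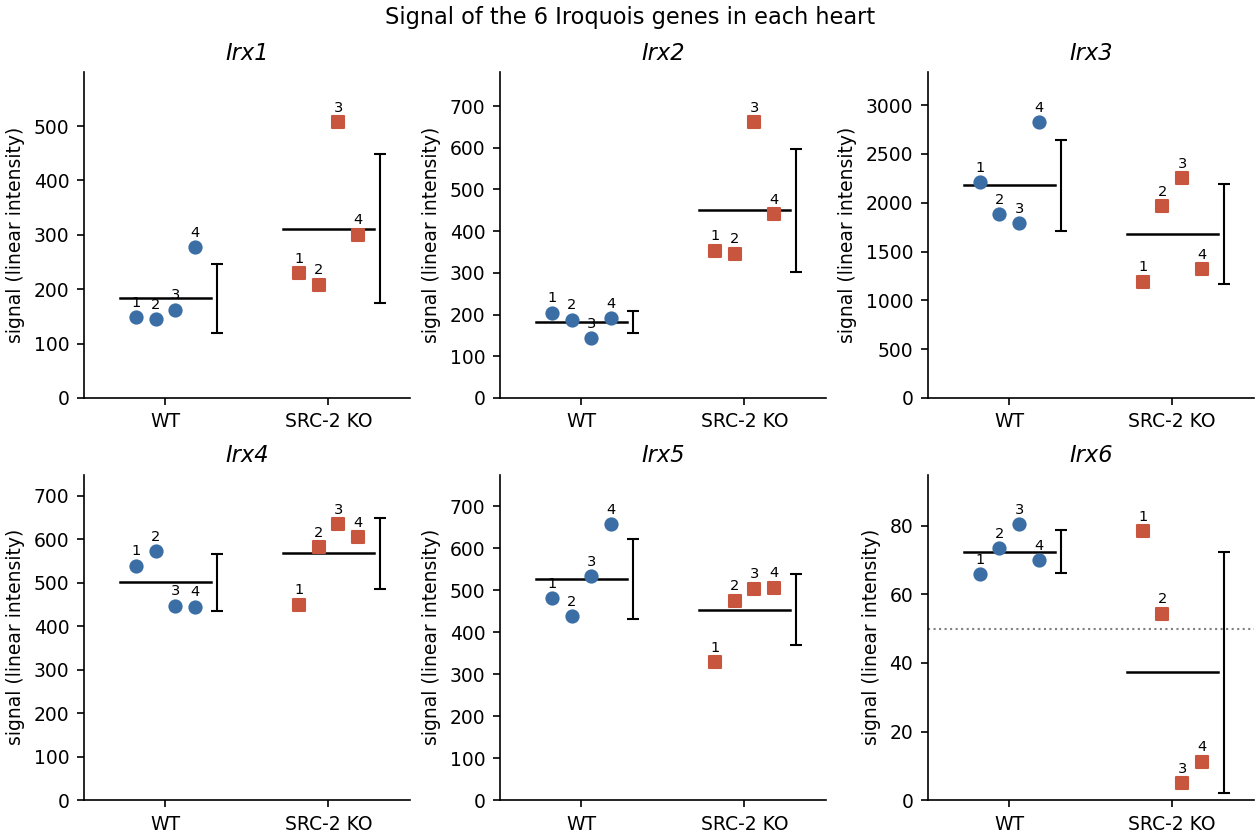
Signal (linear intensity, y axis from 0, a scale of its own in each panel) of the 6 Iroquois genes in 4 WT hearts (circles) and 4 SRC-2 KO hearts (squares), numbered by replicate. Lines are means, bars beside them are mean ± SD, and the dotted line in the Irx6 panel is the signal of 50; Irx2 is the gene whose KO hearts, 346 to 662, all lie above its WT hearts, 143 to 205.

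Since each heart gave all 6 values, Irx2 could be set against each other member within a heart, which cancels any difference in scaling between arrays. Relative to Irx4, Irx2 was higher in KO hearts by a log2 ratio of 1.09 (standard error 0.19). The WT hearts lay between −0.17 and 0.25 around their own mean and the KO hearts between 0.72 and 1.53, without overlap. The log2 ratio was 1.67 (standard error 0.24) relative to Irx3, 1.49 (standard error 0.26) relative to Irx5 and 2.99 (standard error 1.17) relative to Irx6, also without overlap. The ratio to Irx6 rests on its 2 signals under 50 and was 1.61 with signals under 50 set to 50 and 1.65 with an offset of 50. Relative to Irx1 it was 0.54 (standard error 0.25), and there the WT hearts, −0.57 to 0.43, overlapped the KO hearts, 0.35 to 0.70.

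**Figure D2:**
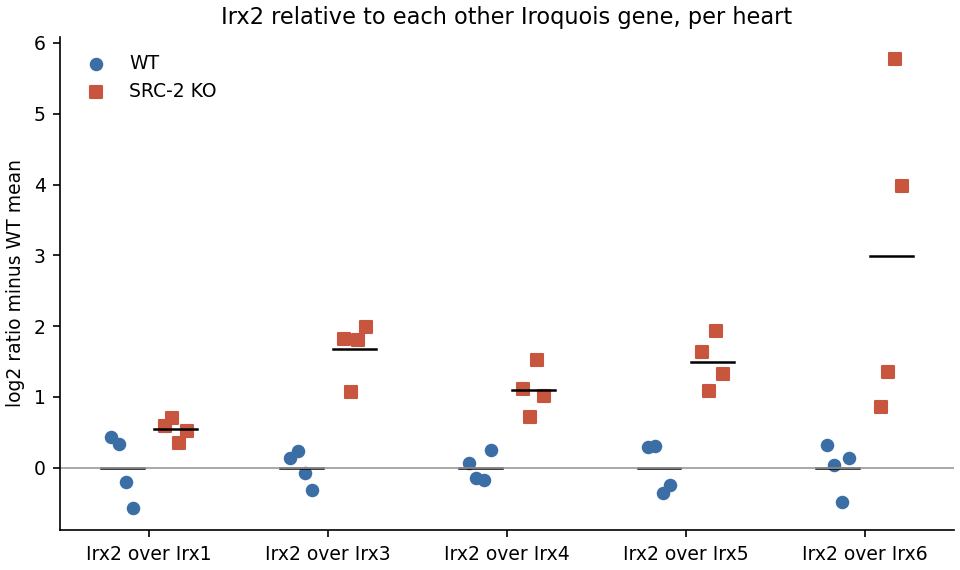
Log2 ratio of Irx2 to each other Iroquois gene per heart, set to a WT mean of 0 (y axis), for WT (circles) and SRC-2 KO hearts (squares), with lines at group means. The KO hearts lie above the WT hearts for Irx3, Irx4, Irx5 and Irx6, and for Irx1 the groups overlap, with a KO mean of 0.54.

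The members were also counted in fits across all 18194 genes with limma, adjusted by Benjamini-Hochberg at 0.05. With 1 prior variance for all genes (the common-variance fit), 0 of 6 members were called in either direction, against 0.0055% of all genes called higher and 0.0165% called lower in KO hearts, and 1 member, Irx2, had an unadjusted p under 0.05, as did 719 higher and 1113 lower genes of all 18194. With a prior variance that follows the mean signal (the trended fit), 1 of 6 was called higher, Irx2, against 0.121% of all genes, and 0 of 6 lower, against 0.258%, with 2 members higher and 0 lower at an unadjusted p under 0.05, where 975 genes were higher and 1324 lower. In 1 of 6 members, Irx2, all KO hearts lay above all WT hearts, which was so in 3.11% of all genes, and in 0 of 6 they lay below, against 3.72%. Nothing is read from these counts, since the contrast had chosen the gene. The trended call of Irx2 was lost when any WT replicate or KO replicate 1, 2 or 3 was left out and was kept without KO replicate 4.

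Signals of Ncoa2 ran from 1660 to 2134 among WT hearts and from 235 to 267 among KO hearts (log2 difference −2.95) for the brightest of its 4 probesets. The next brightest had a log2 difference of −2.63, with KO replicates 2, 3 and 4 under 50 (26.4, 8.98 and 45.8), so its size is uncertain. The remaining probesets, also under 50 in some hearts, had −0.28 and 0.67, and the mean of all 4 gave −1.30. The median signal of an array lay between 77.0 and 87.3 for WT and between 75.6 and 83.2 for KO. The sums of the 10 lung epithelial markers were low in both genotypes, 498 to 586 for WT and 494 to 616 for KO, while the ventricular markers summed to at least 213931 in every heart.

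The hearts of a genotype differed in the signal of atrial markers. The 12 atrial markers, which include Sln, Myl7, Myl4 and Nppa, had 11 lower and 1 higher difference in KO hearts, a median log2 difference of −1.33 against −0.03 over all genes. Their summed signal was 165808 to 272760 in WT hearts, and 204374, 84750.5, 23779.9 and 61443.5 in KO replicates 1 to 4, with no marker under 50 in all hearts. KO replicate 3, lowest in atrial markers, was the highest KO heart for Irx1, Irx2, Irx3 and Irx4 and the lowest for Irx6. KO replicate 1, whose atrial sum lay within the WT range, was the lowest KO heart for Irx3, Irx4 and Irx5 and the highest for Irx6. For Irx2, KO replicate 1 was at 353 and KO replicate 2, whose atrial sum was lower, at 346. Whether atrial content had a part in these values was not tested. On the mean of the log2 signals, KO replicate 1 was at 11.57 and the WT hearts at 11.67 to 12.22, so on this scale it lay just below them.

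**Figure D3:**
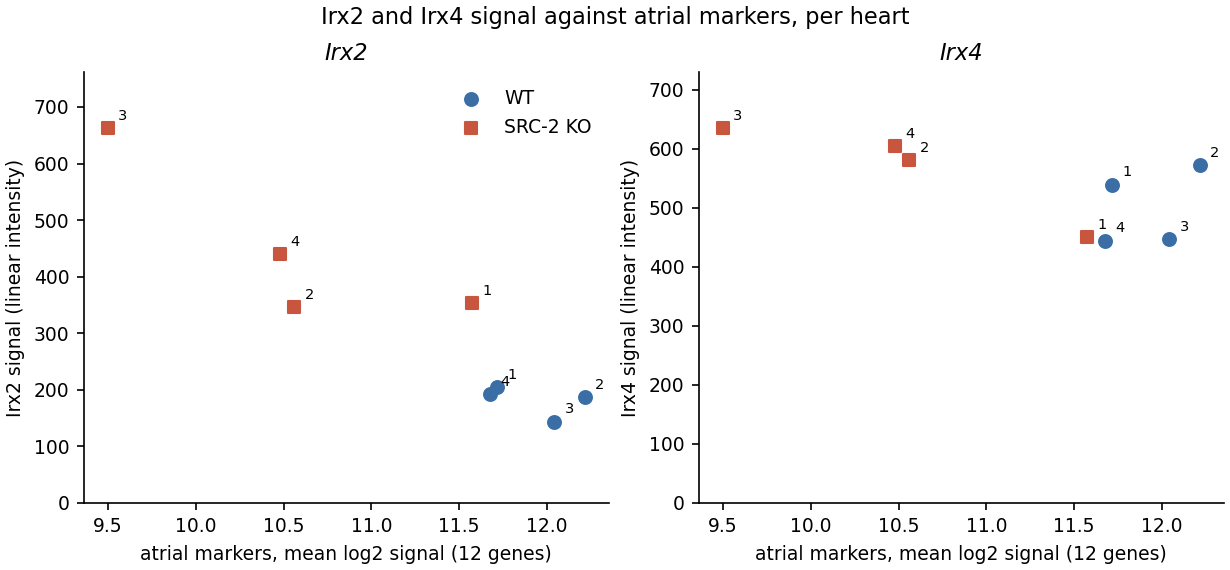
Signal (linear intensity, y axis from 0) of Irx2 and of Irx4 against the mean log2 signal of the 12 atrial markers (x axis), 1 point per heart, numbered by replicate, WT as circles and SRC-2 KO as squares. KO replicate 1 lies at 11.57 on the x axis, just below the WT hearts at 11.67 to 12.22, with Irx2 at 353 and Irx4 at 449.8. The part of atrial content in either gene was not tested.

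The 8 ventricular markers had 7 higher and 1 lower difference, with a median log2 difference of 0.26. The lower one was Myh7 (−0.04, with overlap), which the paper's qPCR found increased in KO hearts. The 8 markers summed to 213931 to 274433 for WT and 261919 to 328552 for KO, and none was under 50 in all hearts. By the mean of their log2 signals KO replicate 3 was also the highest heart, 0.47 above the WT mean, and the other KO hearts lay 0.12 to 0.25 above it. WT replicate 2 lay 0.13 above the WT mean, so the groups overlapped. Among these markers Fhl2, a LIM domain protein of the sarcomere, had a log2 difference of 0.44 (0.24 with quantile normalization). All its KO hearts lay above the WT hearts, which was so in 3.11% of all genes. The part of atrial and ventricular content in the Iroquois values was not tested.

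With the mean of each genotype removed, the log2 signals of the 8 hearts were correlated among members and with both marker lists. The strongest relations of Irx2 were those with Irx6 (r = −0.86, rho = −0.76), the atrial markers (r = −0.79, rho = −0.71), the ventricular markers (r = 0.77, rho = 0.62) and Irx1 (r = 0.74, rho = 0.57). Without the 2 hearts farthest from the median of Irx2, of the marker list or of Irx1 these were, in that order of pairs, −0.84, −0.42, 0.46 and 0.36, so of these 4 only the relation with Irx6 kept its size. The first value includes both KO signals of Irx6 far under 50, and the second, without WT replicate 3 and KO replicate 3, includes 1 of them. That of Irx2 with Irx4 was weaker (r = 0.61, rho = 0.52, and r = 0.47 without 2 hearts). Irx3 and Irx5, the IrxB pair, had r = 0.67 and rho = 0.52 (0.41 without 2 hearts), and Irx3 ran against the atrial markers (r = −0.79, rho = −0.79, and −0.57 without 2 hearts). The atrial list had r = −0.73 with Irx1, −0.75 with Irx5, −0.60 with Irx4 and 0.85 with Irx6. Without KO replicates 1 and 3 these were −0.56, −0.63, 0.35 and 0.21, so the relation with Irx4 turned its sign and that with Irx6 rests on those hearts. In an exact permutation test within genotype, added after the values were seen, 0 of 27 relations passed, with a lowest adjusted p of 0.203 for r and 0.188 for rho, and the smallest unadjusted p that the 576 arrangements allow is 0.00174.

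**Figure D4:**
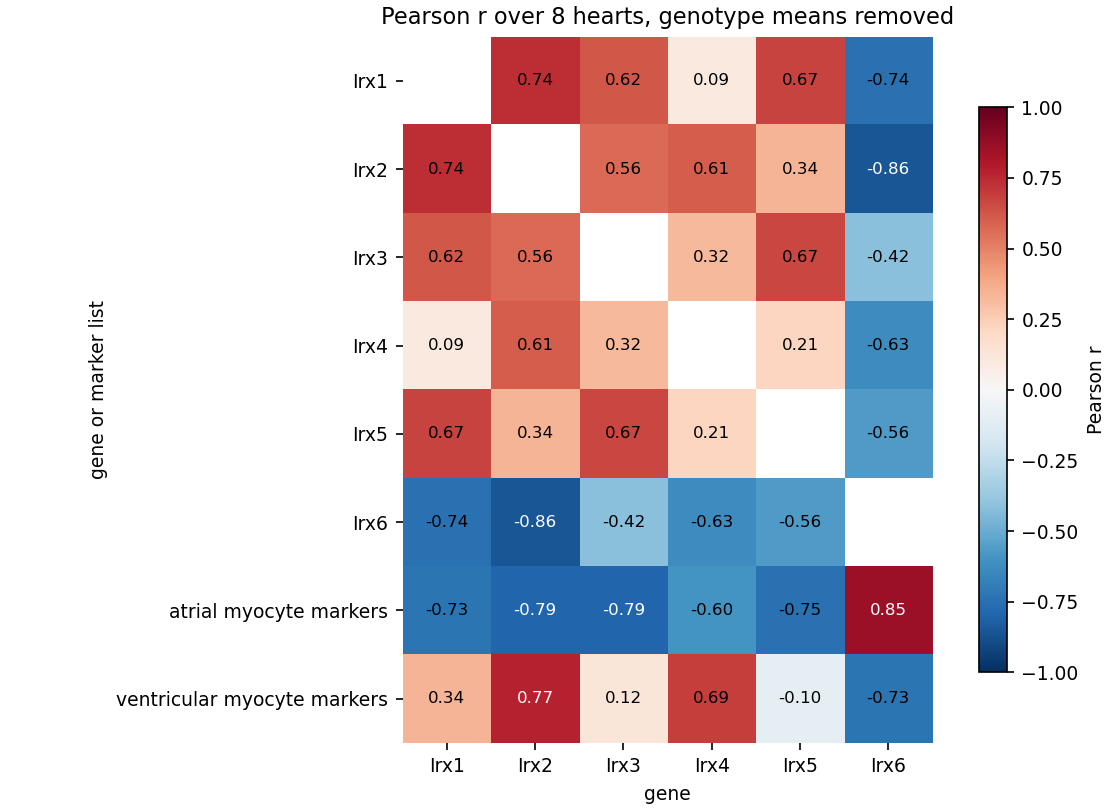
Pearson r over 8 hearts of log2 signals with genotype means removed, for pairs of Iroquois genes and for each gene with the atrial and ventricular marker lists (colour and printed value). Irx6 is negative with every other member and has r = 0.85 with the atrial markers, which falls to 0.21 without KO replicates 1 and 3, and the negative r of Irx4 with them turns to 0.35.

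Cluster neighbours were not each other's closest matches. Among 10871 genes with all signals at 50 or more, Irx1 ranked 272 by its correlation with Irx2 over the 8 hearts, Irx4 ranked 1062, and Irx5 ranked 179 for Irx3. The genes most like Irx2 over the 8 hearts were 4930453N24Rik, Mid1ip1, a regulator of lipid synthesis, and Adhfe1, a mitochondrial enzyme that oxidises hydroxy acids, each with r = 0.97. Their log2 differences between genotypes were 0.31, 0.65 and 0.78, given without a test because likeness to Irx2 over these hearts chose them. With genotype means removed they were Orai3, a subunit of a calcium channel (r = 0.98), Lrfn1 and Lrrc57 (r = 0.97 each). For Irx4 the most like were Ift81, a protein of cilia (r = 0.96), Tox and Ndufb1 (r = 0.95 each), and with genotype means removed Ddit4l (r = 0.98), Tox and Ddx10 (r = 0.96 each). Each was the best of many genes over 8 shared arrays.

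The genomic neighbours of the clusters were read in gene order, 5 measured genes on each side, with Crnde, which lies within IrxB, added to the IrxB list. Around IrxA, 3 of 10 were higher and 7 lower, with a median log2 difference of −0.11, and 0 passed in either fit, nor at an unadjusted p under 0.05. Mrpl36, next to Irx4 in the list of measured genes and a protein of the mitochondrial ribosome, had a log2 difference of −0.16. Around IrxB, 6 of 11 were higher and 5 lower (median 0.05), and 0 passed in limma. At an unadjusted p under 0.05 the common-variance fit had 2 of them lower, and the trended fit had 2 lower and 1 higher. Of all 18194 genes, 1113 were lower in the former fit, and 1324 were lower and 975 higher in the latter. Mmp2, a matrix protease, had a log2 difference of −0.77, and Fto, an RNA demethylase gene whose introns are known to hold enhancers of Irx3, had one of 0.28.

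Of the other TALE homeobox factors, partners and relatives of the Iroquois proteins, 11 of 12 were measured, 4 higher and 7 lower (median log2 difference −0.03). In limma 0 passed in either fit, with 2 and 3 lower at an unadjusted p under 0.05 in the common-variance and the trended fit. Of all 18194 genes, 1113 and 1324 were lower in this way. Tgif2 (−0.73), Pknox2 (−0.58) and Tgif1 (−1.42) had all KO hearts below all WT hearts, which was so in 3.72% of all genes. The value of Tgif1 was −0.67 without KO replicate 3 and −0.91 with signals under 50 set to 50, and those of Tgif2 and Pknox2 were −0.47 and −0.35 with the mean of all probesets. Tgif1 and Tgif2 are known as repressors of TGF-beta responses. Meis1 (−0.10), Meis2 (−0.02) and Pbx2 (0.03), cofactors of HOX proteins, lay near 0. Pbx4 and Mkx were under 50 in all hearts.

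Genes known to be linked to Iroquois factors in heart had differences in both directions. Of 10 measured, 7 were higher and 3 lower (median 0.04), and 0 passed in either fit. At an unadjusted p under 0.05 the common-variance fit had 0 of them, and the trended fit had 1 lower and 2 higher. Of all 18194 genes, 1324 were lower and 975 higher in the trended fit. Kcnd2, the channel gene that Irx5 is known to repress, had signals of 2300.5 in WT and 2774 in KO hearts on average (log2 difference 0.26), with overlap. Gja1, the main connexin of working muscle, had a log2 difference of 0.05, and Gja5, a connexin of fast conduction, lay near background with means of 32.2 and 25.7. Nppa, which Irx4 is known to hold back in the ventricle, had a log2 difference of −1.09 (−0.63 without KO replicate 3), and Hand1, a ventricular factor, one of 1.12 (0.60 without WT replicate 2). For Nppa, which encodes ANF, the paper's qPCR went the other way, with more ANF in KO hearts.

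Among 23 cardiac transcription factors, 11 were higher and 12 lower, and 2 fell in the trended fit, against 0.258% of all genes. In the common-variance fit 0 passed, and 2 higher and 7 lower had an unadjusted p under 0.05. Of all 18194 genes, 719 were higher and 1113 lower at that p. Tbx5, a T-box factor of atria, left ventricle and conduction system, had 939 ± 165 in WT and 464 ± 117 in KO hearts (SD, n = 4 each), a log2 difference of −1.03 (adjusted p = 0.0367). Nr2f2, which sets atrial identity, had 1249 ± 289 and 562 ± 142 (log2 difference −1.16, adjusted p = 0.0367). Hand2 had a log2 difference of 0.34 with all KO hearts above the WT hearts, which was so in 3.11% of all genes. The paper's qPCR gave lower Tbx5 in KO hearts, a gene that the paper also marks as found on its arrays. It gave lower Hand2 too, so for Hand2 the assays went in opposite directions. The same was so for Nkx2-5 (0.27), Mef2c (0.11) and Srf (0.06), lower by qPCR and on average higher here, with overlap. Gata4 (−0.18) and Gata6 (−0.16), lower by qPCR, were on average lower here, also with overlap. Hey2, a transcriptional repressor of the ventricle, had a log2 difference of 0.28 with overlap. Of the 12 atrial markers Nr2f2 and Stard10, a lipid transfer protein (−1.64, adjusted p = 0.0188), fell in the trended fit, against 0.258% of all genes. In the common-variance fit 0 fell, and 8 were lower at an unadjusted p under 0.05, as were 1113 of all 18194 genes. The calls of Tbx5, Nr2f2 and Stard10 were each lost without WT replicate 1, 2 or 3 or without KO replicate 2 or 3, and that of Nr2f2 also without WT replicate 4.

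Markers of the conduction system and of other cell types of the heart were read beside these. Of 10 measured conduction system markers, 8 were lower and 2 higher (median log2 difference −0.51). Among the lower were Tbx3 (−0.76) and Shox2 (−1.11), factors of the pacemaker and conduction tissue. Both had all KO hearts below all WT hearts, which was so in 3.72% of all genes. The values of Tbx3 and Shox2 depend on the probeset: with the mean of all probesets they were −0.19 and −0.29, and the median of the list −0.27. All 9 endothelial and endocardial markers (median −0.39, and −0.60 without WT replicate 1), all 8 fibroblast markers (median −0.72) and all 7 macrophage markers (median −0.37) were lower. The count of 9 also depends on the probeset, since Nfatc1, an endocardial marker, was at 0.15 with the mean of all probesets. In each of these lists 0 passed in either fit, while 2, 2, 2 and 4 were lower at an unadjusted p under 0.05 in the common-variance fit and 4, 6, 6 and 5 in the trended fit. Of all 18194 genes 9636 were lower, with an unadjusted p under 0.05 for 1113 of them under the common-variance and 1324 under the trended prior. Their summed signals in WT and KO hearts were 3996 to 5144 and 2503 to 3608 for the conduction markers and 82047 to 135347 and 54870.2 to 85658 for the fibroblast markers. Their part in the Iroquois values was not tested.

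**Figure D5:**
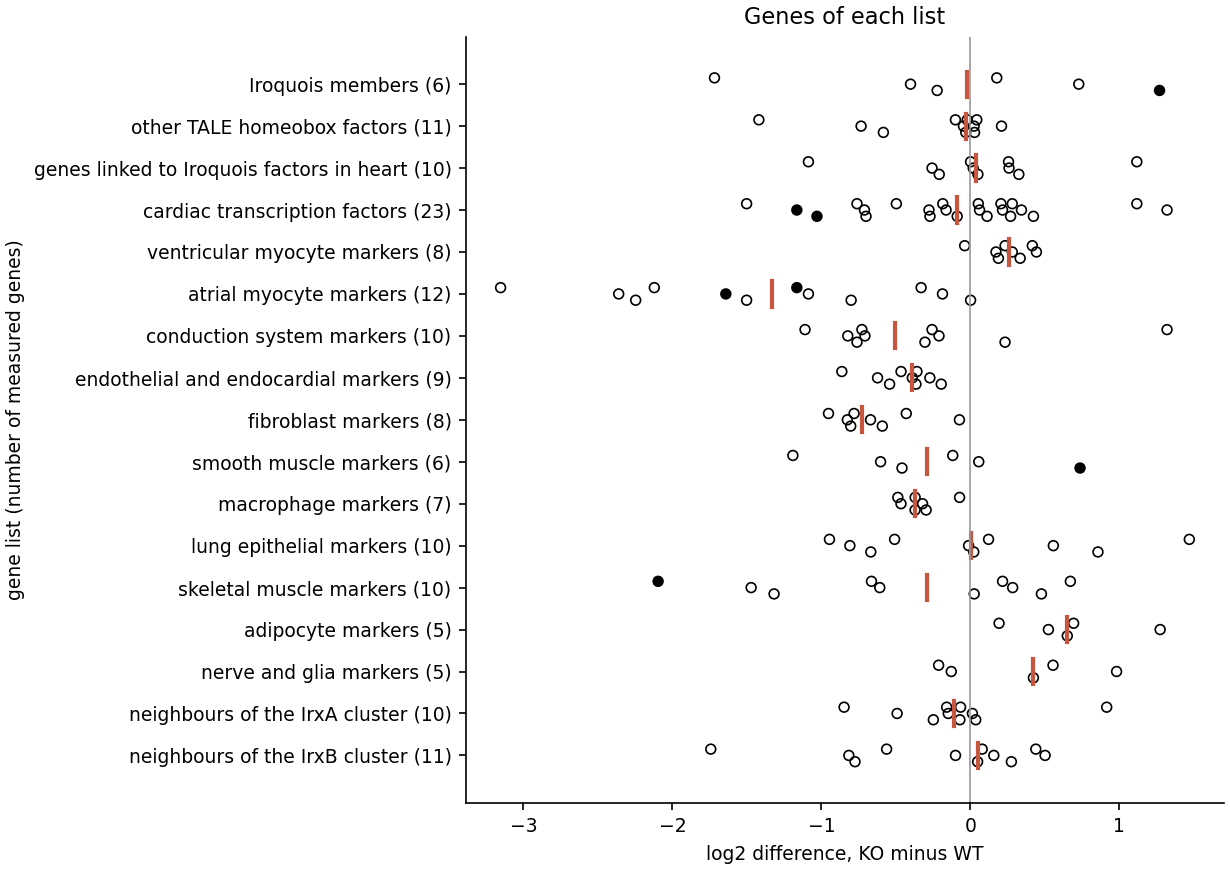
Log2 difference between KO and WT hearts (x axis) of each measured gene in each list (y axis, number of genes in brackets), with filled points for genes that passed at an adjusted p under 0.05 in the common-variance or the trended fit and a bar at the median. The Iroquois genes spread from −1.72 to 1.27 around a median of −0.02, and the atrial markers have a median of −1.33; the calls shown depend on which hearts are left out.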

How the data were processed

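RNA from 8 hearts, 4 WT and 4 SRC-2 KO, was read on Affymetrix mouse expression arrays. The values deposited by the authors are linear intensities, 0.219 at the lowest and 124739 at the highest, 1 for each of 45101 probesets, with the same mean on every array after 2% trimming at each end. Per the labels and methods, Affymetrix Expression Console, Partek and RMA were used. The deposited values are linear, reach down to 0.219 and have a trimmed mean of 500 on every array, unlike RMA values. They may thus not be the values behind the study's own calls. Their log2 was taken with no floor, so differences between signals near background are uncertain in size. Probesets with 1 gene symbol (34958) were kept, and the one with the highest mean over 8 arrays stood for a gene, which gave 18194 genes. Gene order and promoter windows came from RefSeq GRCm38.p6.

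KO and WT hearts were compared in R 4.3.3 with limma 3.58.1 (lmFit, eBayes), two-sided, with p-values adjusted over all genes. The study's random variance model was run as an alternative. Correlations and figures were made in Python 3.11.15. Scripts were tested on simulated data.

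The members, the hand-written gene lists and the tests were chosen with earlier results of these data known. Named genes are the members, Ncoa2, the genes of each list that passed in either fit or otherwise up to 3 with the smallest p, and the 3 most like Irx2 and Irx4 on each measure. Other genes in the text (Meis1, Meis2, Pbx2, Kcnd2, Gja1, Gja5, Hand2, Hey2, Sln, Myl7, Myl4) were chosen from the lists after their values were seen. Whether replicate numbers pair the hearts is not stated, and the main fits did not use them. The methods call the mice littermates without saying which hearts shared a litter, so the main fits assume that the hearts are independent. Their p-values set each difference against a variance drawn toward a prior from all genes. The number of arrays limits the precision. Protein sequences were not used here.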

Additional observations from a re-analysis of the deposited data

Results flagged for a closer look

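Among 28 checks of a single heart against the other hearts of its genotype, 2 exceeded Dixon's critical value for 4 samples, and chance gives about 1 in 20. Irx1 in WT replicate 4 (278, other WT hearts 145 to 162) had a gap of 0.83 of the range of the WT hearts. Irx5 in KO replicate 1 (329, other KO hearts 475 to 506) had a gap of 0.85 of the range of the KO hearts.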

How the results depend on the processing

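The log2 difference of every member kept its direction in 14 of 14 alternatives, from 1.07 to 1.38 for Irx2, 0.12 to 0.29 for Irx4, and 0.91 to 1.22 for Irx2 relative to Irx4. Much of this was fixed in advance. Each member had 1 probeset, so the probeset settings returned the main values, and setting signals under 50 to 50 changed only Irx6. For Irx2, and for Irx2 relative to Irx4, all KO hearts lay above all WT hearts, so leaving out a heart could not change the direction. Numbers of called genes varied between settings. In the common-variance fit the 1 higher gene became 0 with the mean of all probesets, signals under 50 set to 50, dim genes left out, quantile normalization or the replicate block, 22 in the trended fit, and 0 to 1 without single hearts. The 3 lower genes became 1 with the mean of all probesets, 11 with an offset of 50, 0 with the replicate block, 47 in the trended fit, and 1 to 5 without single hearts. With signals under 50 set to 50, the 22 genes called higher in the trended fit became 0 and the 47 genes called lower in the trended fit became 2, and with quantile normalization the latter became 30. Without single hearts they ranged from 2 and 3 (without WT replicate 2) to 104 and 218 (without KO replicate 4). Members called higher went from 0 to 1 between the common-variance and the trended fit. The 1 in the trended fit became 0 with signals under 50 set to 50 and with the replicate block, and was 0 to 1 without single hearts; with an offset of 50 or the mean of all probesets it was also lost. Deviations of hearts of equal number were weakly correlated at most (r from −0.08 to 0.12). Such correlations cannot decide whether a litter or a processing step paired the hearts, so the block is given only as an alternative. With the mean of all probesets, Nfatc1 (0.15), Fto (−0.0117) and Ddx10 (0.13) changed direction, a setting added for single genes after their values were seen, as were the alternatives for list medians. Without single hearts Lrrc57 ranged from −0.0496 to 0.158 and Ddx10 from −0.161 to 0.0478, so neither has a settled direction. Tbx5, Nr2f2, Stard10, Acta2 and Tnni2 lost their trended calls with the mean of all probesets and with signals under 50 set to 50. They were also lost by all of these but Stard10 with quantile normalization, by Tbx5, Nr2f2 and Acta2 with an offset of 50, by Nr2f2 and Tnni2 with the replicate block, and by Acta2 without probesets marked _x_at or _s_at. The medians of the other TALE factors, the lung markers and the IrxB neighbours, all near 0, changed sign under some settings, the last to −0.22 with the mean of all probesets. The cause of these changes was not tested. Signals near background limit Irx6, with 2 of 8 under 50.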

Other observations

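Other markers that a whole heart can hold were read once each. Acta2, smooth muscle actin, rose in KO hearts (21179 ± 2192 in WT and 35604 ± 6305 in KO hearts, SD, n = 4 each, log2 difference 0.74, adjusted p = 0.0421 in the trended fit of limma), while the 6 smooth muscle markers had 2 higher and 4 lower, with a median log2 difference of −0.29 that has no settled direction, since it was 0.12 without KO replicate 3 and −0.77 without KO replicate 4. That call was lost when any WT replicate or KO replicate 1 or 3 was left out. Of 10 skeletal muscle markers, 5 were higher and 5 lower, and Tnni2, the fast troponin I, fell (601 ± 200 [SD] in WT and 147 ± 62.1 [SD] in KO hearts, n = 4 each, log2 difference −2.10, adjusted p = 0.0367 in the trended fit), a call lost when any WT replicate or KO replicate 3 was left out. The 5 measured adipocyte markers were all higher (median 0.65), but the median was 0.11 without KO replicate 4, whose summed adipocyte signal of 2347 stood against 491 to 937 in the other KO hearts. Of 5 nerve and glia markers 3 were higher (median 0.42, and 0.15 without WT replicate 2). In the adipocyte, nerve and lung lists 0 passed in limma in either fit, nor at an unadjusted p under 0.05.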
